A study of Mus musculus with 4 samples.

Results

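The 9 genes described here encode the vasoactive signals endothelin, natriuretic peptide and nitric oxide at the levels of ligand, receptor and synthase: the endothelins Edn1 and Edn3, the endothelin receptors Ednra and Ednrb, the natriuretic peptide receptors Npr1, Npr2 and Npr3, and the nitric oxide synthases Nos1 and Nos3. They were taken by symbol from the 31053 genes counted in a single nucleus RNA-seq (snRNAseq) dataset of the mouse arcuate nucleus (ARC), and all 9 were found. The ARC is a hypothalamic nucleus beside the third ventricle that takes part in the control of energy balance, pituitary hormones and blood pressure. Nuclei came from wildtype male C57BL/6J mice aged 10 weeks, which had either received a subcutaneous pellet of deoxycorticosterone acetate, a mineralocorticoid, with a saline drink for 3 weeks (DOCA-salt, a model of hypertension) or had undergone sham surgery (Sham). Each treatment had 2 libraries, and each library pooled the nuclei of 2 mice, so that the pool was the replicate throughout.

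Endothelins are short peptides cut from precursors by endothelin converting enzymes, and they act on 2 G protein-coupled receptors: the type A receptor (Ednra) on vascular smooth muscle constricts vessels, and the type B receptor (Ednrb) of endothelium and astrocytes clears the peptide and releases dilators. Atrial and brain natriuretic peptides act on the guanylyl cyclase Npr1, C-type natriuretic peptide acts on the guanylyl cyclase Npr2, and Npr3 mainly removes the peptides. Nitric oxide is made from arginine by the neuronal (Nos1) and endothelial (Nos3) synthases and activates soluble guanylyl cyclase, so that the natriuretic peptide and nitric oxide arms meet in cyclic GMP.

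After filtering, 10307 and 18907 nuclei remained from the pools DOCA-salt 1 and DOCA-salt 2, and 2203 and 7759 from Sham 1 and Sham 2, 39176 in all. The filter removed 4.25%, 4.29%, 21.5% and 6.80% of barcodes in that order. In Sham 1 it took the UMI total from 53257230 to 21255137. Depth was uneven, with median counts of 2401, 2534, 8215 and 3278 unique molecules (UMIs) per nucleus in that order. Levels are therefore given as CPM, the counts of a gene scaled to the UMI total of the same class and library. Shares of nuclei with a UMI are also given after thinning nuclei to 1000 UMIs, which leaves out those with fewer. The pools also differed in the tissue they held: DOCA-salt 2 had 1 Agrp nucleus and no tanycyte but 387 Pmch neurons, and DOCA-salt 1 alone had striatal-type neurons, 340 of them. Cell classes were gated on marker genes that include none of the 9 genes, and held 26058 neurons, 1756 astrocytes, 381 endothelial nuclei, 75 mural nuclei and 519 oligodendrocyte precursors, among others, while 8315 nuclei (21.2%) stayed unassigned. As the gate on these lists fixes, the astrocyte list summed to 14031 to 19761 CPM in astrocytes and 1693 to 2502 CPM in neurons, and the endothelium list to 5925 to 11487 CPM in endothelium and 78.9 to 129 CPM in neurons. The mural list, however, reached 1257 to 2598 CPM in nuclei gated as endothelium, and the endothelium list 1657 to 2179 CPM in those gated as mural cells. Libraries shared 5 to 49 cell barcodes per pair.

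The genes lie on 8 chromosomes of GRCm38: Edn1 at chr13:42301476-42307990 (+), Edn3 at chr2:174760619-174784042 (+), Ednra at chr8:77663031-77724464 (-), Ednrb at chr14:103814625-103844402 (-), Npr1 at chr3:90450591-90465866 (-), Npr2 at chr4:43631935-43651244 (+), Npr3 at chr15:11839896-11907287 (-), Nos1 at chr5:117781032-117958840 (+) and Nos3 at chr5:24364810-24384474 (+). Of antisense neighbours with a row in the data, Atg9b overlaps Nos3 by 294 bp and was at 21.1 to 34.4 CPM in all nuclei, and Gm15587 was at 0.668 to 1.40 CPM. The antisense neighbours of Edn1, Npr1, Npr2 and Nos1 were at or below 0.0941 CPM. Promoter windows from 250 bases before to 50 after the RefSeq start (GRCm38.p6) were found for 8 genes, and those of the 2 ligands and of Ednrb are shown because these genes had large differences between classes below, as did Nos3, for which no window was found. Capitals mark the one match among 4 motifs searched on both strands, the GATA motif AGATAA read on the opposite strand.
Edn1, chr13:42301226-42301525 (+): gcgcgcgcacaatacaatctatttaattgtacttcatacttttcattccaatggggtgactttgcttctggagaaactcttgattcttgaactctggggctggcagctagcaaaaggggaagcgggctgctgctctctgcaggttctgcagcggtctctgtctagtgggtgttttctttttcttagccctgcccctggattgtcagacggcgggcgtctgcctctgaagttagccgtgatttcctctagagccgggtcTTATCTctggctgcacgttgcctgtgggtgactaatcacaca
Edn3, chr2:174760369-174760668 (+): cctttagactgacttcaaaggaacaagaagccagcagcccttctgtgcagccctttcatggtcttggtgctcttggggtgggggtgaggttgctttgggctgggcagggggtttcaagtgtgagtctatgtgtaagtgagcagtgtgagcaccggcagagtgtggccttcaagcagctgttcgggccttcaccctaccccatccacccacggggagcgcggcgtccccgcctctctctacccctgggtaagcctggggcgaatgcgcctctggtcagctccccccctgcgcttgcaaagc
Ednrb, chr14:103843652-103843951 (-): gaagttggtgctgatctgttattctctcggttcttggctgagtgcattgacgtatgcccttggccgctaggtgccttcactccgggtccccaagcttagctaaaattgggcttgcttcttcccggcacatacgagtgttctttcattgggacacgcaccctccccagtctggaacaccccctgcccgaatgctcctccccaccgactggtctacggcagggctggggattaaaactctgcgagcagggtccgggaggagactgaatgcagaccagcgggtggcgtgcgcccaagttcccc

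The Edn1 match lies 8 to 13 bases after the start, and 11.2% of 32851 promoter windows of the same length hold AGATAA. No match to the TATA box TATAAA (13.6% of windows), the AP-1 site TGACTCA (5.20%) or the palindrome of nuclear factor I (0.0365%) was found in the 8 windows, which says only that these letters are not there. The windows of Edn1, Edn3 and Ednrb hold 11, 10 and 15 CpG dinucleotides, where 43.5% of windows hold at least 10.

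Detection over all 4 libraries divided the genes. Ednrb had 10065 UMIs in 6530 nuclei (16.7%), Nos1 6833 UMIs in 4944 nuclei (12.6%) and Npr2 5229 UMIs in 4550 nuclei (11.6%). The other 6 genes were sparse, with 841 UMIs for Nos3, 709 for Npr3, 266 for Edn3, 264 for Ednra, 207 for Npr1 and 173 for Edn1, each in at most 2.01% of nuclei. UMI totals depend on transcript length and nuclear content and do not rank the genes by abundance. Neurons held 84.4% of all UMIs. They held 86.6% of the Npr2, 87.0% of the Npr3 and 87.0% of the Nos1 UMIs, but 43.9% of the Edn1 and 47.0% of the Edn3 UMIs. Endothelium, with 0.866% of all UMIs, held 25.4% of the Edn1, 19.9% of the Edn3 and 13.7% of the Nos3 UMIs.

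**Figure D1:**
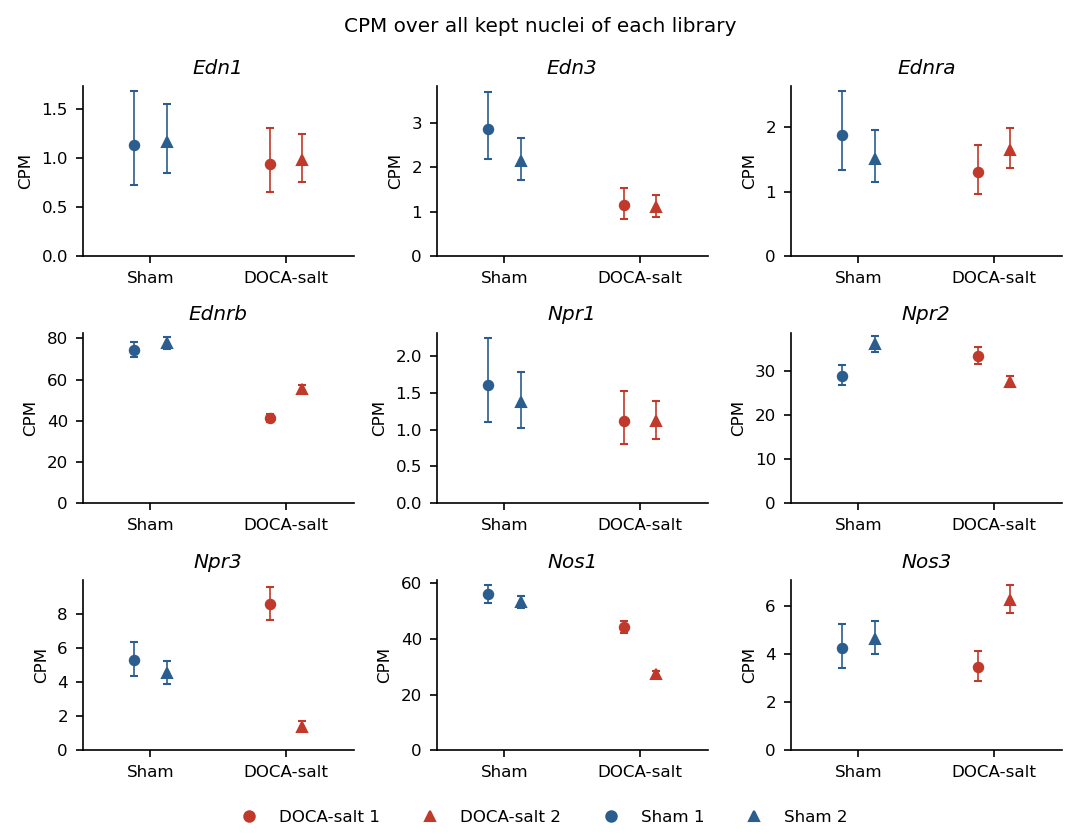
CPM of each gene over all kept nuclei of a library (points; DOCA-salt red, Sham blue, circle for pool 1 and triangle for pool 2), with 95% Poisson bars that cover counting error only. For Edn3, Ednrb and Nos1 both DOCA-salt points lie below both Sham points, whereas DOCA-salt 2 lies far below the other 3 pools for Npr3.

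Both endothelin ligands were concentrated in endothelium. Edn1, the ligand classically released by endothelial cells, was at 27.8 and 27.6 CPM in endothelium of DOCA-salt 1 and 2 and at 13.9 and 54.5 CPM in Sham 1 and 2, from 3, 24, 3 and 14 UMIs. In neurons of the same pools it was at 0.748, 0.239, 0.726 and 0.761 CPM. Every endothelial value lay above every neuronal value, and between 5.26% and 10.0% of endothelial nuclei had an Edn1 UMI against 0.111% to 0.712% of neurons, which had more UMIs per nucleus (medians of 3290.5 to 9592, against 1522 to 5760.5). With 30 to 235 endothelial nuclei per pool these shares are loose: the exact 95% interval was 1.10% to 14.6% in DOCA-salt 1 and 2.11% to 26.5% in Sham 1.

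The test over class sums of the 4 libraries, with the library as a block (edgeR quasi-likelihood, adjusted over all genes tested), gave Edn1 a log2 difference of 5.94 ± 0.47 (SE) between endothelium and neurons, with adjusted p = 4.40e-14. In that contrast 30.3% of all genes tested were called. Against astrocytes the fitted difference was 5.71 ± 0.73 with adjusted p = 2.54e-08, where 20.5% of genes were called. It rested on 2 Edn1 UMIs in astrocytes against 44 in endothelium, a ratio of levels of 51.7 with an exact interval of 13.5 to 440 that covers counting error only. No Edn1 UMI was found in 378 microglia, which allows a share of up to 0.794%, or in 519 oligodendrocyte precursors, which allows up to 0.578%. These limits are on nuclei with a UMI at this depth and not on nuclei that express the gene. The level in mural nuclei, 0, 94.7 and 17.7 CPM in the pools with at least 10 such nuclei (DOCA-salt 1, DOCA-salt 2 and Sham 2), came from 8 UMIs and overlapped that in endothelium. Its mean of 37.5 CPM was above the 30.9 CPM of endothelium.

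Edn3, known best from the development of enteric neurons and melanocytes, had the same 2 classes at the top by mean, in the other order (38.8 CPM in endothelium and 32.6 CPM in mural nuclei). It was at 27.8 and 32.2 CPM in endothelium of the DOCA-salt pools and at 60.3 and 35.0 CPM in Sham, against 0.624, 0.393, 1.62 and 1.61 CPM in neurons. Endothelium again stood above neurons in all 4 pools, by 5.52 ± 0.41 on the log2 scale (adjusted p = 1.95e-15, edgeR), and above astrocytes by 4.76 ± 0.58 (adjusted p = 5.53e-09), where 5 UMIs were counted. GABAergic neurons were at 0.833, 0.498, 1.39 and 2.01 CPM and glutamatergic neurons at 0.606, 0.169, 1.06 and 0.437 CPM, higher in the first in each pool, and the difference did not pass (1.18 ± 0.48, adjusted p = 0.155). Sst neurons had 14 at 0.691 to 5.05 CPM, and their difference from other neurons did not pass the test (1.22 ± 0.51, adjusted p = 0.312). In mural nuclei Edn3 was at 0, 27.1 and 70.7 CPM from 6 UMIs, a range that holds the endothelial values. Nuclei with both endothelial and mural markers, 106 in all and set apart as mixed vascular nuclei, had 28 Edn3 UMIs.

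The type A receptor Ednra was counted at its highest levels in vascular nuclei, and its counts were low everywhere. In mural nuclei it was at 40.6, 27.1 and 0 CPM in DOCA-salt 1, DOCA-salt 2 and Sham 2, from 3 UMIs, and in endothelium at 27.8, 17.2, 4.64 and 3.89 CPM from 20 UMIs. The mixed vascular nuclei had 70.7, 28.0, 28.2 and 39.4 CPM from 19 UMIs. Oligodendrocyte precursors had 9.40 to 20.8 CPM from 11 UMIs, and neurons 0.842, 1.04, 1.56 and 1.16 CPM. Ednra did not pass the count filter of the fit between classes, so these levels carry no test, and 14 nuclei with smooth muscle markers were too few to compare.

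Ednrb was the most sharply placed receptor. Astrocytes had 470 and 413 CPM in DOCA-salt 1 and 2 and 430 and 549 CPM in Sham 1 and 2, oligodendrocyte precursors 206, 197, 198 and 267 CPM, and neurons 31.1, 43.9, 55.7 and 61.1 CPM. The ranges of these 3 classes did not overlap. Astrocytes exceeded neurons by 3.50 ± 0.11 on the log2 scale (adjusted p = 1.73e-29, edgeR), an 11.3-fold difference, in a contrast where 41.4% of genes were called, and exceeded oligodendrocyte precursors by 1.27, the fit for precursors over astrocytes being -1.27 ± 0.14 (adjusted p = 7.58e-10; 16.6% of genes called). Oligodendrocyte precursors in turn stood above neurons by 2.23 ± 0.16 (adjusted p = 1.85e-16; 24.1% called). Below these 2 glial classes the order was not resolved. Endothelium (46.4, 86.1, 55.7 and 73.9 CPM), mural nuclei (40.6 to 81.2 CPM), microglia (33.0 to 70.9 CPM), neurons and oligodendrocytes (30.1, 35.1, 44.9 and 56.6 CPM) all overlapped. The fit put endothelium above neurons by 0.76 ± 0.19 (adjusted p = 0.00125), but not without DOCA-salt 2 (0.42, adjusted p = 0.308), and below astrocytes (-2.74 ± 0.17, adjusted p = 9.12e-19).

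The share of astrocytes with an Ednrb UMI was 45.5% (95% interval 40.8% to 50.2%) and 40.0% (36.8% to 43.4%) in DOCA-salt and 87.0% (79.7% to 92.4%) and 71.0% (65.6% to 76.0%) in Sham. Median UMIs per astrocyte were 1113.5, 1037.5, 4963 and 2238 in the same order. After thinning to 1000 UMIs the 4 shares were 41.4%, 34.3%, 37.7% and 42.0%, and those of neurons 2.34%, 3.52%, 5.35% and 4.93%. Thinning left out 179 and 414 astrocytes of DOCA-salt but 1 and 33 of Sham, so the thinned sets are not alike. The part of depth in the spread was not tested. Free RNA also adds UMIs to nuclei that do not make a gene, and the astrocyte marker list was measured in the other classes for this reason. Per 100 UMIs of that list, Ednrb had 2.38, 2.42, 3.07 and 3.4 UMIs in astrocytes and 1.84, 2.22, 2.22 and 2.50 in neurons, 1.60 to 1.98 in oligodendrocytes and 1.25 to 2.42 in microglia. The ratios in neurons, oligodendrocytes and microglia lay below that in astrocytes of the same pool, by little in DOCA-salt 2. In endothelium the ratio was 0.824, 1.87, 1.31 and 1.36, below that of neurons in each pool. The astrocyte list itself was at 4252 to 5632 CPM in endothelium, against 1693 to 2502 CPM in neurons. The part of free RNA in the Ednrb counted in these classes was not tested. In oligodendrocyte precursors the ratio was 6.51, 6.19, 5.22 and 7.18, above that of astrocytes in all 4 pools.

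**Figure D2:**
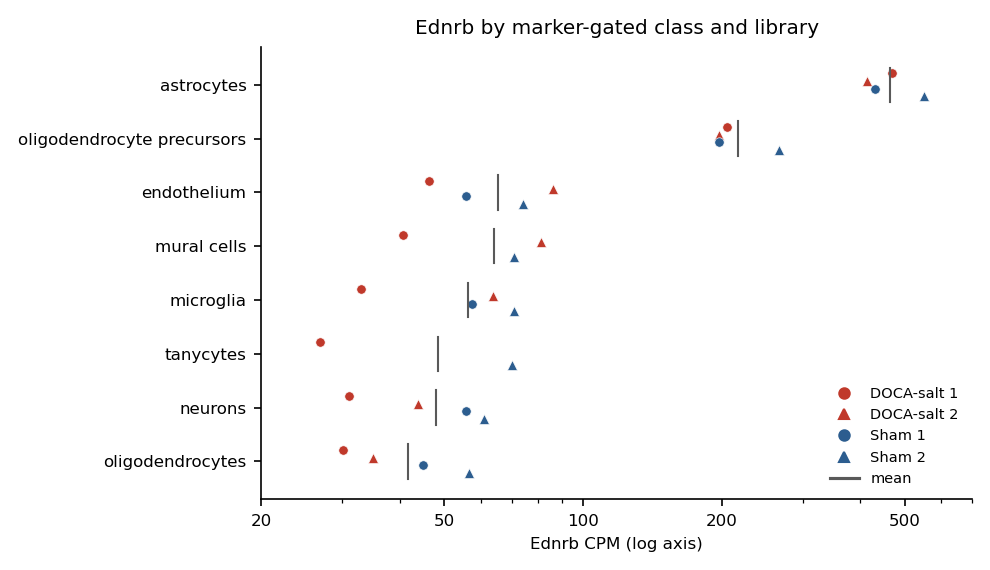
Ednrb CPM (log axis) by marker-gated class and library, points coloured by treatment, circle for pool 1 and triangle for pool 2, with a bar at the mean. Astrocytes (413 to 549 CPM) and oligodendrocyte precursors (197 to 267 CPM) stand apart from the other classes.

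Natriuretic peptide receptor levels were low in every class for Npr1 and broad for Npr2. Npr1, the receptor of atrial and brain natriuretic peptide, had its most UMIs outside neurons in endothelium, at 0, 10.3, 18.6 and 31.1 CPM from 0, 9, 4 and 8 UMIs. DOCA-salt 1 had 57 endothelial nuclei, where 0 UMIs allow up to 27.8 CPM, so that the absence there is within the depth. Tanycytes, the radial glia of the ventricle wall, were at 4.47 CPM in DOCA-salt 1 and 11.7 CPM in Sham 2 from 2 UMIs each, and neurons at 0.967, 0.922, 1.00 and 0.974 CPM. Npr1 did not pass the filter of the fit between the major classes.

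Npr2 was spread over neurons at 34.2, 27.9, 30.9 and 37.9 CPM, astrocytes at 28.3, 46.3, 22.1 and 26.2 CPM and oligodendrocyte precursors at 25.2 to 44.4 CPM, and these 3 classes did not differ beyond their spread (0.17 ± 0.20 for astrocytes over neurons, adjusted p = 0.539). Oligodendrocytes (5.01, 12.1, 8.16 and 19.5 CPM) were below all 4 neuronal values, by 1.04 ± 0.28 on the log2 scale (adjusted p = 0.00214; 42.3% of genes called). Microglia, with 4 Npr2 UMIs in all, were below neurons by 2.07 ± 0.64 (adjusted p = 0.0158; 20% called), a call lost without DOCA-salt 1 (1.68, adjusted p = 0.0736), Sham 1 (1.79, adjusted p = 0.0546) or Sham 2 (1.98, adjusted p = 0.0665). Endothelium, at 0, 17.2, 4.64 and 27.2 CPM, was below neurons (-0.98 ± 0.34, adjusted p = 0.0260) and below astrocytes (-1.15 ± 0.38, adjusted p = 0.0219). The first call was lost without DOCA-salt 1 (-0.79, adjusted p = 0.0725) or Sham 1 (-0.78, adjusted p = 0.109), and the second without Sham 1 (-1.03, adjusted p = 0.0770). The highest mean of any class was in tanycytes, 44.7 CPM in DOCA-salt 1 and 76.0 CPM in Sham 2, followed by Agrp neurons at 42.5, 58.6 and 56.3 CPM (DOCA-salt 1, then the Sham pools). These 2 classes overlap each other and Ghrh neurons (50.4, 41.1, 49.5 and 60.1 CPM), and neither could be tested because DOCA-salt 2 held 0 tanycytes and 1 Agrp nucleus.

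**Figure D3:**
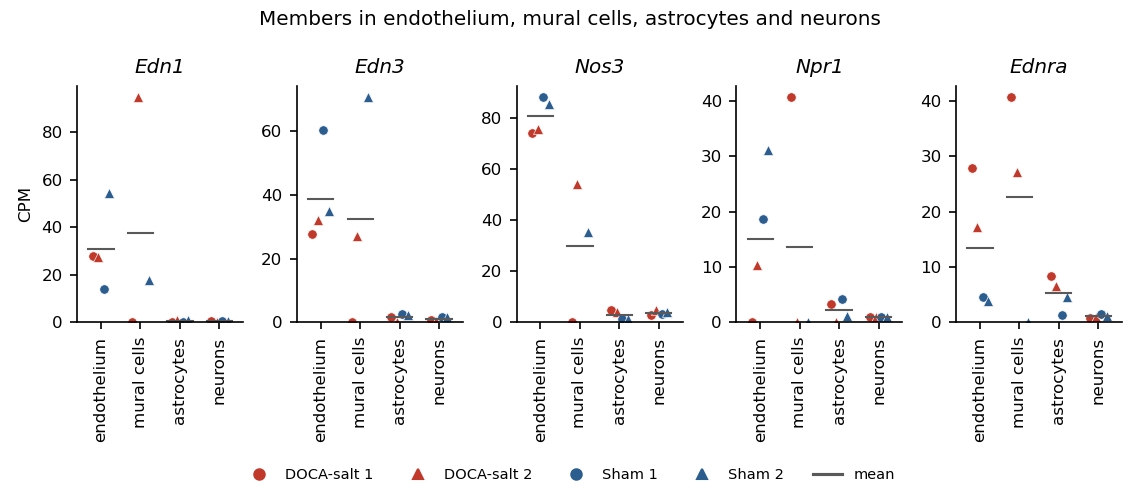
CPM of Edn1, Edn3, Nos3, Npr1 and Ednra in endothelium, mural cells, astrocytes and neurons, by library (points coloured by treatment, circle for pool 1, triangle for pool 2, bar at the mean), for libraries with at least 10 nuclei of the class. Nos3 sits between 74.2 and 88.2 CPM in endothelium of all 4 libraries, whereas mural points, from 14 to 34 nuclei each, spread from 0 upward.

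Among neurons, Npr2 was higher in GABAergic than in glutamatergic neurons. It was at 36.0, 29.3, 34.1 and 40.9 CPM in the first and 27.5, 22.0, 24.8 and 25.4 CPM in the second, higher in each of the 4 pools, by 0.48 ± 0.08 on the log2 scale (adjusted p = 0.00671, edgeR), where 10.4% of genes were called. Without the library as a block the difference was the same size but did not pass (adjusted p = 0.186). Set against the remaining neurons of the same pools, a contrast added after seeing the data, ventromedial neurons were lower in Npr2 (19.7, 21.6, 13.0 and 24.5 CPM; -0.58 ± 0.14, adjusted p = 0.00313), in a contrast that called 12.7% of genes. This call was kept whichever pool was left out. Ghrh neurons, which drive growth hormone release, were higher by 0.59 ± 0.19 (adjusted p = 0.0335; 6.29% of genes called), but not without DOCA-salt 1 (0.62, adjusted p = 0.220) or Sham 2 (0.55, adjusted p = 0.297).

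Npr3, the clearance receptor, had its highest mean in Tac2 neurons, among classes with at least 10 nuclei in 2 or more pools. Tac2 neurons of the ARC also make kisspeptin and dynorphin, but this class was gated on Tac2 alone. Npr3 was at 32.02, 3.45, 12.4 and 16.1 CPM in these nuclei, from 40, 7, 5 and 20 UMIs. In all neurons it was at 8.61, 1.47, 5.25 and 4.90 CPM. The value in Tac2 neurons was above that of all neurons in each pool, although DOCA-salt 2 was low in both. The difference from the other neurons was 1.76 ± 0.26 on the log2 scale, or 3.38-fold (adjusted p = 0.00124, edgeR), against 1.46% of genes called, and it passed without any one pool (1.56 to 1.88) and on thinned nuclei (2.59, adjusted p = 0.00144). Dopaminergic neurons followed at 18.0, 2.37, 28.4 and 6.37 CPM, with 1.41 ± 0.32 over other neurons (adjusted p = 0.0131; 2.45% of genes called). This call did not hold without DOCA-salt 1 (1.56, adjusted p = 0.0907) or Sham 1 (0.93, adjusted p = 0.215). The 2 classes overlap each other and Agrp neurons (8.39, 7.81 and 22.5 CPM), which were not tested. Outside neurons, 15 fibroblast-like nuclei of DOCA-salt 1 had 4 Npr3 UMIs, or 103 CPM with a 95% interval of 28.0 to 263, above every value in Tac2 neurons. The other pools held 3 such nuclei in all.

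Nos1, the neuronal synthase, was at 46.9, 27.7, 56.8 and 54.7 CPM in neurons, with 15.3%, 10.6%, 35.4% and 24.3% of them having a UMI (4.20%, 2.75%, 4.82% and 5.08% after thinning). Oligodendrocytes were lower, at 20.1, 15.7, 34.7 and 25.7 CPM, by 0.74 ± 0.21 on the log2 scale for neurons over oligodendrocytes (adjusted p = 0.00280), except without Sham 2 (0.59, adjusted p = 0.0733). Astrocytes were at 19.98, 16.5, 44.3 and 43.3 CPM, below neurons in each pool, but the fitted difference of -0.42 ± 0.17 (adjusted p = 0.0487) was lost without DOCA-salt 1 (-0.28, adjusted p = 0.251), DOCA-salt 2 (-0.35, adjusted p = 0.188) or Sham 2 (-0.49, adjusted p = 0.0587) and in DESeq2 (adjusted p = 0.161). Microglia, with 24.7, 5.79, 57.4 and 70.9 CPM from 20 UMIs, did not differ from neurons beyond their spread (0.22 ± 0.33, adjusted p = 0.721). The neuron marker list was itself present at 3199 to 4682 CPM in astrocytes and 4132 to 5699 CPM in microglia. Per 100 UMIs of that list, Nos1 had 0.625, 0.448, 0.946 and 0.936 UMIs in astrocytes and 0.362, 0.285, 0.490 and 0.452 in neurons, higher in astrocytes in all 4 pools, and 0.599, 0.115, 1.01 and 1.46 in microglia, higher than in neurons in 3 of 4. Oligodendrocytes were at 0.746, 0.457, 0.741 and 0.591 by the same ratio, also above neurons in all 4 pools. The part of free RNA in these counts was not tested.

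Neuronal classes differed in Nos1 in both directions. Dopaminergic neurons, a class gated on the genes of dopamine synthesis and transport, had the highest mean, at 118, 24.9, 116 and 63.7 CPM, 0.84 ± 0.17 on the log2 scale above other neurons (adjusted p = 0.00437). The value of DOCA-salt 2 lay below that of its neurons as a whole, and the call was lost without DOCA-salt 1 (0.47, adjusted p = 0.216). Sim1 neurons, a marker of the paraventricular nucleus, were second by mean, at 145, 28.4, 36.2 and 93.1 CPM from 43 UMIs, and did not pass (0.18 ± 0.26, adjusted p = 0.934; 1.4% of genes called). Ghrh neurons were higher by 0.59 ± 0.16 (64.6, 37.0, 68.1 and 102 CPM; adjusted p = 0.00626), except without DOCA-salt 1 (0.66, adjusted p = 0.0585) or Sham 2 (0.38, adjusted p = 0.542).

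By the fit, Nos1 was lower in Pomc and Tac2 neurons than in other neurons. Pomc neurons, which make the precursor of the satiety peptide alpha-MSH, were at 25.9, 31.7, 46.6 and 29.3 CPM. Their difference of -0.81 ± 0.14 from other neurons (edgeR adjusted p = 1.04e-06, with 8.29% of genes called) passed whichever pool was left out (-0.89 to -0.67). In DOCA-salt 2, however, Pomc neurons, with 19 nuclei and 4 Nos1 UMIs, lay above the other neurons (27.7 CPM). Tac2 neurons were at 15.2, 24.1, 24.8 and 33.8 CPM, lower by 0.83 (-0.83 ± 0.18, adjusted p = 0.0201), and this did not pass without DOCA-salt 1 (-0.59, adjusted p = 0.0758), Sham 1 (-0.77, adjusted p = 0.192) or Sham 2 (-0.89, adjusted p = 0.101). On thinned nuclei the Pomc and Tac2 values were similar in size (-0.80 and -0.75) and did not pass (adjusted p = 0.512 and 0.70). Glutamatergic neurons (72.5, 29.3, 79.8 and 51.4 CPM) exceeded GABAergic neurons (36.3, 25.2, 46.5 and 53.8 CPM) in 3 of the 4 pools and did not pass (-0.49 ± 0.15 for GABAergic over glutamatergic, adjusted p = 0.0733).

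In all, 9 of 63 tests of the genes in 8 neuronal classes passed, in contrasts that called 1.4% to 12.7% of all genes. The other call was Ednrb in ventromedial neurons (-0.48 ± 0.13, adjusted p = 0.00527), lost without Sham 2 (-0.35, adjusted p = 0.132). None passed in Sst, Sim1 or suprachiasmatic neurons, where 2.74%, 1.4% and 3.36% of all genes were called by edgeR and 2, 0 and 1 of the tests of these genes had an unadjusted p under 0.05. For Ednrb in GABAergic over glutamatergic neurons, 0.30 ± 0.08 (adjusted p = 0.0427), the call was lost without DOCA-salt 2 (0.29, adjusted p = 0.134), Sham 1 (0.29, adjusted p = 0.124) or Sham 2 (0.22, adjusted p = 0.230).

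**Figure D4:**
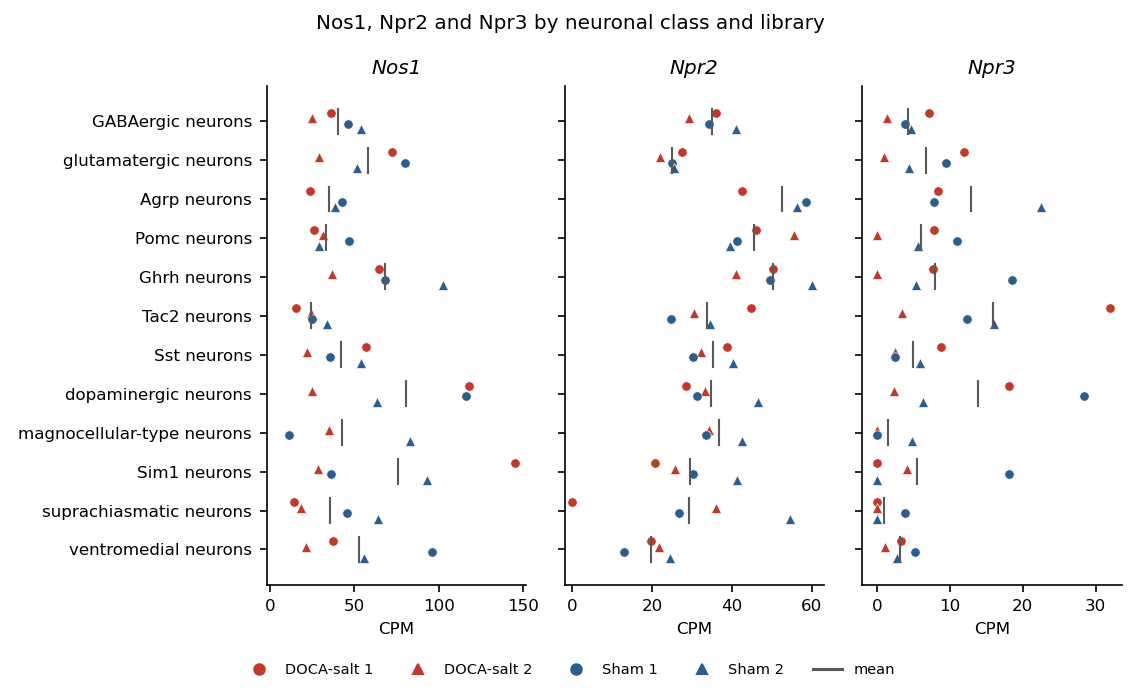
CPM of Nos1, Npr2 and Npr3 in neuronal classes by library (points coloured by treatment, circle for pool 1, triangle for pool 2, bar at the mean; classes with at least 10 nuclei in the library). Npr3 reaches 32.02 CPM in Tac2 neurons of DOCA-salt 1, and Nos1 reaches 118 CPM in dopaminergic neurons of the same pool but 24.9 CPM in those of DOCA-salt 2.

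Nos3, the endothelial synthase, was even across the pools in endothelium, at 74.2 and 75.8 CPM in DOCA-salt and 88.2 and 85.6 CPM in Sham, from 8, 66, 19 and 22 UMIs. After thinning, 8.11%, 9.89%, 6.67% and 8.16% of endothelial nuclei had a UMI, against 0.202% to 0.460% of neurons. Neurons were at 2.74, 4.71, 3.18 and 3.99 CPM and astrocytes at 1.14 to 5.00 CPM. Endothelium exceeded neurons by 4.51 ± 0.30 (adjusted p = 1.55e-17, edgeR), or 22.8-fold, and astrocytes by 4.67 ± 0.43 (adjusted p = 1.64e-12), and the latter call held without any one pool (4.35 to 5.10). Mural nuclei were at 0, 54.1 and 35.3 CPM from 6 UMIs in the pools with at least 10 of them. With the limit lowered to 5 nuclei, which brings in Sham 1, none of 4 genes tested by edgeR differed between mural nuclei and endothelium, where 0.974% of all genes were called. Of these 4, Nos3 alone had an unadjusted p under 0.05 (-1.21 ± 0.56, adjusted p = 0.470).

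In the planned contrasts between classes, 10 of 25 tests of the 9 genes were called, 6 higher and 4 lower in the first class, in contrasts that called 10.4% to 41.4% of all genes. Edn1, Edn3 and Nos3, with the endothelium first, and Ednrb, with astrocytes first, gave the largest differences among the called tests, and each of the calls for Nos1 and Npr2 was smaller than 1.2 in size on the log2 scale. Contrasts of mural cells and of tanycytes could not be fitted at 10 nuclei per pool.

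The DOCA-salt and Sham pools were compared to ask whether mineralocorticoid excess with salt moved these genes. Over all nuclei, 0 of 9 genes passed at an adjusted p of 0.05 in edgeR, as did 0% of the 16564 genes tested, while 3 of the 9 and 1399 of all genes had an unadjusted p under 0.05. DESeq2 called 109 genes and none of the 9. With 2 pools per treatment the smallest two-sided exact permutation p is 0.333. The median of the 9 log2 differences, DOCA-salt over Sham, was -0.30, beside 0.03 over all genes tested. In sums over all nuclei, fewer cells of a type and less RNA per cell cannot be told apart.

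Edn3 was at 1.15 and 1.11 CPM in DOCA-salt and 2.87 and 2.15 CPM in Sham (-1.19 ± 0.35, adjusted p = 0.572, edgeR). Ednrb was at 41.5 and 55.5 CPM in DOCA-salt and 74.5 and 77.8 CPM in Sham (-0.69 ± 0.20, adjusted p = 0.572). Nos1 was at 44.1 and 27.3 CPM in DOCA-salt and 56.0 and 53.1 CPM in Sham (-0.67 ± 0.22, adjusted p = 0.572). In these 3 genes both DOCA-salt pools were below both Sham pools, as they were in Edn1 (0.935, 0.980, 1.13 and 1.16 CPM) and Npr1 (1.12, 1.11, 1.60 and 1.37 CPM). The count of 5 of 9 stands beside 16.2% of all genes with such an order. With 1 DOCA-salt pool left out, that arm is a single library, the spread comes from the Sham pools alone and the lone library is assumed to vary as they do, here and in each such value below. So fitted, Ednrb was at -0.97 without DOCA-salt 2, and Nos1 at -1.0 and Npr3 at -1.81 without DOCA-salt 1.

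The other genes overlapped between treatments. Npr3 was at 8.57 and 1.40 CPM in DOCA-salt and 5.27 and 4.53 CPM in Sham, so that the 2 DOCA-salt pools lay on either side of Sham (-0.06 ± 0.73, adjusted p = 0.987, edgeR). Npr2 (33.6, 27.7, 29.1 and 36.2 CPM; -0.14 ± 0.17), Nos3 (3.47, 6.28, 4.28 and 4.65 CPM; 0.10 ± 0.37) and Ednra (1.31, 1.66, 1.88 and 1.52 CPM; -0.22 ± 0.37) differed by less than the spread between pools.

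Within marker-gated classes, 56 tests in 15 classes gave 0 calls by edgeR, and 13 had an unadjusted p under 0.05, all with the lower value in DOCA-salt. Under the same p-value, 1362 of 16185 genes fell in neurons and 1270 of 9830 in astrocytes. The tests overlap, since GABAergic and other neuronal classes are parts of the neurons. In classes not named again in this comparison, the share of all genes called was 0.0453% in oligodendrocytes, 0.109% in oligodendrocyte precursors, 0.00761% in glutamatergic, 0.0642% in Ghrh, 0.0167% in Sst, 0.00972% in dopaminergic, 0.088% in Sim1 and 0.0307% in suprachiasmatic neurons, and 0% in GABAergic and Tac2 neurons. In neurons the gene with the lowest p-value was Edn3, which was at 0.624 and 0.393 CPM in DOCA-salt and 1.62 and 1.61 CPM in Sham (-1.72 ± 0.41, adjusted p = 0.584), from 20, 23, 29 and 53 UMIs, where 0% of genes were called. With DOCA-salt 2 as the single DOCA-salt library the value was -2.02. Both DOCA-salt pools were below both Sham pools in 5 of the 9 genes in neurons, beside 17.3% of all genes.

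Ednrb in neurons was lower in DOCA-salt by 0.66 (-0.66 ± 0.22, adjusted p = 0.584, edgeR), from 31.1 and 43.9 CPM to 55.7 and 61.1 CPM in Sham. The astrocyte marker list in the same neurons moved with it, at 1693 and 1976 CPM in DOCA-salt and 2502 and 2441 CPM in Sham, and its part in the difference was not tested. In astrocytes, the class with the most Ednrb, the 2 treatments overlapped at 470, 413, 430 and 549 CPM (-0.15 ± 0.26, adjusted p = 0.877). In 0.661% of genes tested in astrocytes a difference was called. The test of the difference between the 2 treatment effects gave 0.48 ± 0.14 for astrocytes minus neurons (adjusted p = 0.0389; 1.29% of genes called), which did not pass without DOCA-salt 1 (0.16, adjusted p = 0.873), Sham 1 (0.42, adjusted p = 0.972) or Sham 2 (0.67, adjusted p = 0.107) and was 0.86 without DOCA-salt 2 (adjusted p = 4.16e-06).

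Nos1 had the lowest adjusted p of the 56 tests, in astrocytes, at 19.98 and 16.5 CPM in DOCA-salt and 44.3 and 43.3 CPM in Sham (-1.28 ± 0.35, adjusted p = 0.0841, edgeR), from 12, 20, 32 and 38 UMIs. The neuron marker list in these astrocytes was also lower in DOCA-salt (3199 and 3687 CPM) than in Sham (4682 and 4627 CPM). Per 100 UMIs of that list, Nos1 in astrocytes was at 0.625 and 0.448 in DOCA-salt and 0.946 and 0.936 in Sham. In neurons the same ratio was also lower in DOCA-salt, at 0.362 and 0.285 against 0.490 and 0.452 in Sham. The part of free RNA in the astrocyte difference was not tested. Of the 5 genes with at least 10 UMIs in astrocytes, Ednra, Npr2 and Nos3 had both DOCA-salt pools above both Sham pools. The share of all genes with that order was not counted, so the order is not read as a result about these genes. Over all astrocytes Ednra had 18, Npr2 112 and Nos3 10 UMIs. Nos1 was the 1 of the 5 with both DOCA-salt pools below both Sham pools, a share near the 20.4% of all genes. With DOCA-salt 2 as the single DOCA-salt library the Nos1 value was -1.39. In ventromedial neurons Nos1 was at 37.2 and 21.3 CPM in DOCA-salt and 96.3 and 55.8 CPM in Sham (-1.42 ± 0.33, adjusted p = 0.148), beside 0.0475% of genes called. A fit with the replicate number as a block called 74 of 10527 genes in this class, against 5 in the main fit. The labels give no pairing of same-numbered pools. The Nos1 difference in ventromedial neurons passed in that fit (edgeR adjusted p = 0.00093) and without a filter on low counts (edgeR adjusted p = 0.00265). With a single DOCA-salt library it was -1.70 without DOCA-salt 1 and -0.90 without DOCA-salt 2. Over all neurons the Nos1 difference was -0.63 ± 0.24 (edgeR adjusted p = 0.584), and -1.0 without DOCA-salt 1 (a single DOCA-salt library).

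In endothelium Nos3 did not pass the test by treatment, and Edn1 and Edn3 were too sparse to test. Both DOCA-salt values of Nos3 (74.2 and 75.8 CPM) lay below both Sham values (88.2 and 85.6 CPM). The share of all genes with that order in endothelium was not counted. Nos3 in endothelium, given above, differed by -0.21 ± 0.36 (adjusted p = 0.953, edgeR; 0.018% of genes called), which at this spread leaves a difference in either direction within the error. Edn1 and Edn3 did not pass the filter within endothelium. For Npr2 in astrocytes both DOCA-salt values (28.3 and 46.3 CPM) exceeded both Sham values (22.1 and 26.2 CPM), and the test did not pass (0.69 ± 0.35, adjusted p = 0.394).

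**Figure D5:**
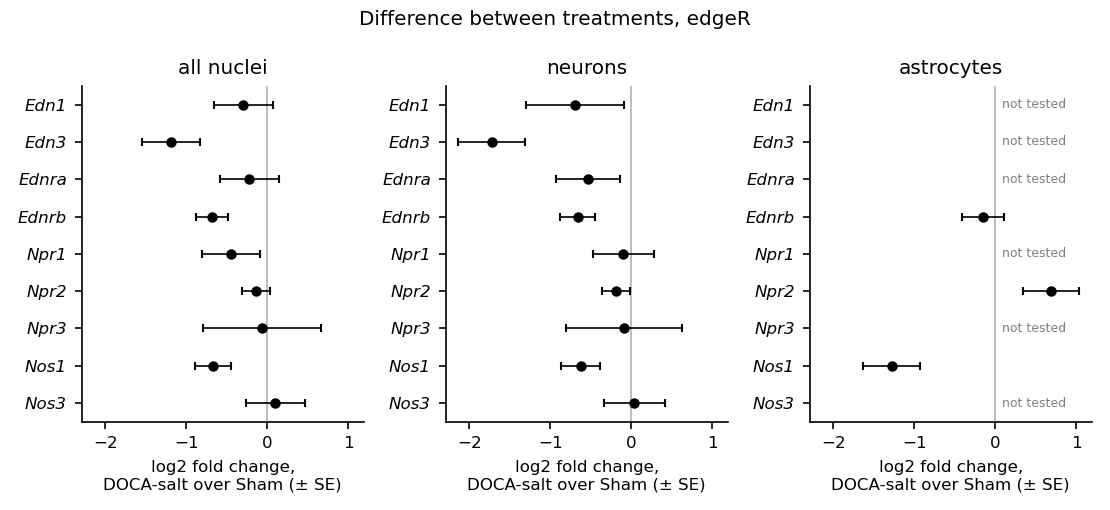
Log2 difference, DOCA-salt over Sham, of the 9 genes with its SE (bars) in all nuclei, neurons and astrocytes, for genes that passed the count filter. No value passed an adjusted p of 0.05, and Edn3 in neurons (-1.72) and Nos1 in astrocytes (-1.28) are the farthest below 0 in their panels.

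The other genes of the 3 pathways were taken from a list of 37, of which 35 have a row in the data. None of the 3 endothelin converting enzyme genes, 5 natriuretic peptide and processing genes, 13 cyclic GMP genes or 8 nitric oxide synthase partners tested over all nuclei differed by treatment (edgeR), with medians of -0.14, 0.25, -0.07 and -0.10. Over all nuclei and within classes together, 1 of 274 treatment tests of the list passed. It was Nos1ap, which encodes the adaptor that binds Nos1, in Pomc neurons (-1.50 ± 0.30, edgeR adjusted p = 0.0268, with 0.107% of genes called). It did not pass in DESeq2 (adjusted p = 1.00), with the replicate block (adjusted p = 0.0510), or without DOCA-salt 1 (-2.45, adjusted p = 0.211), Sham 1 (-1.53, adjusted p = 0.261) or Sham 2 (-1.53, adjusted p = 0.643).

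Between endothelium and astrocytes, where 20.5% of all genes were called, few genes of each list passed. Of 7 synthase partners tested, 2 were higher in endothelium than in astrocytes: Nostrin, which traffics Nos3 from the membrane, by 6.63 ± 0.55 (278, 91.9, 200 and 121 CPM in endothelium), and Cav1, the caveolar protein that binds Nos3, by 5.36 ± 0.57 (92.8, 44.8, 41.8 and 54.5 CPM). Of 8 cyclic GMP genes, 2 passed: Pde5a, a phosphodiesterase of cyclic GMP, was higher by 3.42 ± 0.55 and Pde9a, another, lower (-1.40 ± 0.39). Pde5a was at 74.2, 32.2, 37.1 and 23.3 CPM in endothelium. In mural nuclei of DOCA-salt 1, DOCA-salt 2 and Sham 2 it was higher, at 162, 67.7 and 141 CPM, from 21 UMIs. Of 3 converting enzyme genes, Ece1 was higher by 0.76 ± 0.14, at 288, 211, 227 and 175 CPM, and the protease Furin by 0.95 ± 0.32. All 6 had an adjusted p of 0.0259 or less (edgeR).

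Astrocytes and neurons split the same lists. Ece1 was higher in astrocytes than in neurons by 0.91 ± 0.11, and Ece2 and Ecel1, members of the same protease family, were lower (-1.21 ± 0.18 and -0.93 ± 0.17, adjusted p = 3.20e-07 and 1.27e-05, edgeR). Of 8 cyclic GMP genes, 6 passed, beside 41.4% of all genes in this contrast: Pde9a was higher in astrocytes (1.18 ± 0.22), and Gucy1b1, a subunit of the cyclase that nitric oxide activates, the kinases Prkg1 and Prkg2 and the phosphodiesterases Pde3b and Pde10a were lower (-1.14 to -0.47). Of 7 synthase partners, 2 passed: Ddah1 and Ddah2, which break down an endogenous synthase inhibitor, were higher in astrocytes (0.90 ± 0.13 and 1.39 ± 0.31). Oligodendrocyte precursors had more Prkg2 than astrocytes by 3.75 ± 0.37 (71.4, 56.4, 104 and 79.0 CPM), where 16.6% of genes were called. Cav1 was also higher in precursors than in astrocytes, by 5.15 ± 0.60. Its levels in precursors (58.8, 51.7, 41.6 and 34.5 CPM) overlapped those in endothelium.

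Among neurons, the ligand of Npr2 and a peptide protease followed class. The contrast of GABAergic over glutamatergic neurons called 10.4% of all genes, and those of single neuronal classes 1.4% to 12.7%. Values without 1 pool are not given for the calls that follow. Nppc, which encodes C-type natriuretic peptide, was higher in GABAergic than glutamatergic neurons (1.05 ± 0.16, adjusted p = 0.00376, edgeR), higher in Pomc neurons than in the others (1.66 ± 0.20, adjusted p = 5.38e-14; 28.5, 15.9, 21.9 and 25.3 CPM) and lower in ventromedial neurons (-1.50 ± 0.31). Corin, the protease that activates atrial natriuretic peptide, was higher in GABAergic neurons (2.01 ± 0.46, edgeR adjusted p = 0.0227). It had its highest levels in Agrp neurons (47.0, 31.2 and 51.5 CPM, DOCA-salt 1 before the Sham pools), of which DOCA-salt 2 held 1. The part of Agrp neurons in the GABAergic call was not tested. Ecel1 was higher in Ghrh, Sst, Tac2 and Pomc neurons (0.60 to 1.42) and lower in Sim1 and ventromedial neurons (-2.20 and -1.81). Gch1, the first enzyme of tetrahydrobiopterin synthesis, a cofactor of nitric oxide synthases and of tyrosine hydroxylase, was higher in Pomc (1.81 ± 0.27) and dopaminergic neurons (1.59 ± 0.27). Gucy1a1, the partner of Gucy1b1, was lower in Pomc, Ghrh and dopaminergic neurons (-1.10 to -0.42). Nppa (160 UMIs), Edn2 (34), Nos2 (17) and Nppb (10) were barely counted.

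Genes whose levels across 81 class-by-library sums most resembled each of the 9 were ranked by Pearson's r of log2(CPM + 1) among 12163 genes. These r values describe classes that share libraries and depth and carry no test. Edn1 was nearest to Tie1 (0.835), Wfdc1 (0.824) and Osmr (0.821), Edn3 to Wfdc1 (0.798), Pglyrp1 (0.772) and Tie1 (0.751), and Nos3 to Vwf (0.714), Gjc1 (0.712) and Sox18 (0.712). Tie1, Vwf and Sox18 are known endothelial genes. Ednrb was nearest to Gpr37l1 (0.881), Gpld1 (0.818) and Timp4 (0.804), the first an astrocyte receptor. For Npr2 the nearest were Fhod3 (0.740), A430033K04Rik (0.727) and Angpt1 (0.722), and for Nos1 Pdzrn4 (0.715), Dync1i2 (0.699) and Ncoa1 (0.692). For the sparse genes the nearest were less alike: Afap1l2 (0.695), Hes1 (0.647) and Myo10 (0.628) for Ednra, Prpf40b (0.583), Fam76a (0.569) and Gon4l (0.559) for Npr3, and Ak3 (0.540), Clic5 (0.501) and Slc16a1 (0.487) for Npr1.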

How the data were processed

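Nuclei of ARC punches were profiled with the 10x Single Cell 3' v3 kit, and the authors deposited 1 matrix of UMI counts per library, made with Cell Ranger 3.0.1 on mm10. Whether intronic reads were counted is not given in the sources used here. A barcode was kept when its gene number lay between the limits of 200 and 7000, its UMI number below 25000 and its mitochondrial share below 15%. Nuclei were gated on marker lists without clustering, since no cell annotation was used here, and doublets were left in except in 1 alternative, because Scrublet called only 2 nuclei. UMIs were summed per library and class with at least 10 nuclei and tested with edgeR 4.0.16 (quasi-likelihood, TMM, filterByExpr, Benjamini-Hochberg over all genes tested, threshold 0.05) in R 4.3.3, DESeq2 1.42.0 being an alternative. Treatment was fitted without and class contrasts with the library as a block. The study's own test treated nuclei as replicates and was not used. Pools are the replicates, and p-values for treatment measure the spread between pools. Where the library is a block, p-values measure how class differences vary over pools, and not the spread of levels between pools. This holds for class contrasts and for the test of treatment effects in astrocytes against neurons. Intervals are exact at 95%, and intervals and floors of 3 UMIs cover counting error only. Shares were also taken after thinning to 1000 UMIs, which left out 1978, 3603, 12 and 925 nuclei in the order DOCA-salt 1, DOCA-salt 2, Sham 1 and Sham 2. The members, markers and pathway lists were chosen with earlier results of these data known. All 9 members are named, with pathway genes that passed a test or had few UMIs, and the 3 genes most like each member. Contrasts of neurons with endothelium, precursors, oligodendrocytes and microglia, of astrocytes with oligodendrocytes, of each neuronal class with the other neurons, the 5-nuclei mural contrast, the Ednrb test of astrocytes against neurons by treatment and the crossed pairing were added after seeing the data.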

Additional observations from a re-analysis of the deposited data

Results flagged for a closer look

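In the main fit, the treatment effect on Ednrb differed between astrocytes and neurons in a test of the difference itself. The log2 difference, DOCA-salt over Sham, was less negative in astrocytes than in neurons, by 0.48 ± 0.14 (adjusted p = 0.0389, edgeR), where 1.29% of genes were called. Within astrocytes the effect was -0.15 ± 0.26 and within neurons -0.66 ± 0.22, and neither passed on its own. The value was 0.16 without DOCA-salt 1 (adjusted p = 0.873), 0.86 without DOCA-salt 2 (adjusted p = 4.16e-06), 0.42 without Sham 1 (adjusted p = 0.972) and 0.67 without Sham 2 (adjusted p = 0.107). Without a DOCA-salt pool that arm is a single library, and the spread between pools comes from Sham alone. The astrocyte list summed to 1693 and 1976 CPM in neurons of DOCA-salt and to 2502 and 2441 CPM in those of Sham, and its part in the difference was not tested.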

How the results depend on the processing

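Of 597 values of single genes under alternatives, 513 kept their direction and side of the threshold, 48 lost it, 17 passed it and 19 changed sign. Over all nuclei, none of the 9 genes differed by treatment in any setting that kept all pools. In the same sums DESeq2 called 109 and crossed pairs 58 of all 16564 genes tested. Within classes it was 0 to 11 when 1 pool was left out (11 without DOCA-salt 1, which leaves a single DOCA-salt library with the spread taken from Sham), 1 without a filter on low counts, 1 with the replicate number as a block and 3 with crossed pairs, a pairing tried after seeing the data because same-numbered pools deviated in opposite directions (correlation -0.223 in all nuclei), so the numbers share no more than a name. Calls over all genes changed too. Crossed pairs called 222 of 9830 genes in astrocytes and 114 of 16185 in neurons, beside 65 and 0 in the main fit. The replicate block called 74 of 10527 in ventromedial neurons, beside 5, but 46 in astrocytes, beside 65. Such shares are not given here for the other settings. Between classes the count of 10 fell to 5 with no replicate block, 4 on thinned nuclei (7 tests) and 5 to 8 without 1 pool. Against other neurons the count of 9 was 2 on thinned nuclei, 5 with doublets removed and 4 to 9 without 1 pool. The Ednrb difference between astrocytes and neurons was 0.16 to 0.86 without 1 pool, 0.66 on thinned nuclei (adjusted p = 0.229) and 0.47 with a stricter gate (adjusted p = 0.0528). The cause was not tested for any of these. Signs changed only for treatment effects that passed no test at full size. Without 1 pool, Npr3 ranged from -1.81 to 0.72 in all nuclei, from -1.78 to 0.69 in neurons and from -2.09 to 1.04 in Tac2 neurons, Nos3 from -0.45 to 0.48 in all nuclei and from -0.47 to 0.39 in neurons, Ednrb in astrocytes from -0.31 to 0.031, and Nos1 in dopaminergic neurons from -1.83 to 0.38. With all barcodes, Npr3 was 0.075 in all nuclei and 0.081 in neurons, and Nos3 was -0.056 and -0.13. Nos3 in neurons was -0.0083 with the replicate block, -0.022 with crossed pairs and -0.096 with doublets removed. Npr3 in Tac2 neurons was -0.48 with the replicate block and -0.25 with a stricter gate. Mural and tanycyte contrasts at 10 nuclei were not run. Depth limits Edn1, Edn3, Ednra and Npr1, with 30 endothelial and 7 mural nuclei in Sham 1.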
